A study of Mus musculus with 9 samples.

Results

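Glutathione transferases and peroxidases, with the enzymes that make and regenerate glutathione, were examined in mouse back skin exposed to DNCB (2,4-dinitrochlorobenzene), a reactive contact allergen. Members were chosen by name. They were all genes of the deposited FPKM table named Gst with a class letter (a, k, m, o, p, t or z) and a number, all named Gpx or Mgst with a number, and Gclc, Gss and Gsr. This gave 38 of the 34637 genes in the table. Pseudogenes made up 4 of the 38. Of the 38 members, 34 passed edgeR's filter on low counts and were tested among 20817 genes. The members not tested were Gstm3, Gstt4, Gpx2-ps1 and Gpx4-ps1.

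Glutathione is a small thiol that cells use to trap reactive molecules and to remove peroxides. Glutathione transferases join it to electrophiles, and DNCB is a classical substrate of these enzymes, whereas glutathione peroxidases spend it on reducing peroxides. Gclc and Gss carry out the steps of its synthesis, and glutathione reductase (Gsr) returns the oxidized form to the reduced one.

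The RNA came from back skin of male C57BL/6 mice, 6 to 8 weeks old when the study began. The skin was taken on day 28. All mice were shaved over a square of 2 cm a side, sensitized on day 1 with 200 µL of 1% DNCB and challenged with 100 µL of 0.5% DNCB on 9 days between day 4 and day 21. The FJDHF group (n = 5) received the Fangji Dihuang formulation, a decoction of botanical drugs, by mouth every day after day 7 until day 28. The paper states that the sequenced FJDHF skin came from its medium-dose group. The Model group (n = 4) received water. Both groups carried the DNCB treatment, so the comparison concerned the formulation within inflamed skin, and untreated skin was not analysed here.

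The tables name their columns by codes. The 5 codes starting with MR were taken as FJDHF and the 4 starting with MXL as Model, because the group sizes match and MX abbreviates a Chinese term for a model. Every direction given for the groups rests on this reading. No code was tied to a single mouse, and a code such as MR3_4 or MXL12 may mark pooled RNA, so n counts libraries and p-values measure the spread between libraries. Total counts were 74648669 to 79474215 per library. Keratinocyte, fibroblast and other skin markers were present in all libraries. Of the cell type marker lists compared, the differentiated keratinocyte markers had the smallest exact permutation p between the groups. Their summed level was 10400 to 19100 CPM (counts relative to library size) in MR and 4170 to 11700 CPM in MXL, all 14 of 14 genes had a higher fitted value in MR, and none was at 0. Their mean log2(CPM + 0.5) was 0.91 higher in MR, with an exact permutation p of 0.0159, not adjusted for the number of lists. Other lists also went in a single direction, with 10 of 10 macrophage markers fitted higher in MR and 10 of 10 neutrophil markers lower. Their mean log2(CPM + 0.5), MR minus MXL, differed by 0.27 and -0.27, with exact permutation p of 0.548 and 0.841. MXL12 alone had a summed neutrophil marker level of 927 CPM. The other MXL libraries had 79.2 to 149 CPM and the MR libraries 96.1 to 199 CPM. In whole skin, fewer cells of a type and less RNA per cell cannot be told apart.

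Promoter sequence was compared first, because several of these genes are known targets of Nrf2, which acts through the antioxidant response element, and of AP-1. RefSeq promoters (GRCm38.p6, 250 bases before to 50 bases after the start) were found for 30 of the 38 members. The element's core, TGACNNNGC on either strand, occurred in 4 of these 30 promoters (13.3%) and in 4071 of all 32851 promoters (12.4%). The AP-1 motif TGANTCA, a palindrome counted once, also occurred in 4 of 30 (13.3%), beside 2565 of 32851 (7.81%). A match describes these letters only. The windows below run 5′ to 3′ on the gene's strand, with the motif in capitals. They are shown because they cover every match among the members, including Mgst2, the member with the smallest p between the groups.
Gsta3, chr1:21240454-21240482, plus strand, antioxidant response element core: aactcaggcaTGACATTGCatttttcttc
Gstm5, chr3:107895802-107895830, plus strand, antioxidant response element core: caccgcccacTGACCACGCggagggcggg
Gstm7, chr3:107931725-107931753, minus strand, antioxidant response element core: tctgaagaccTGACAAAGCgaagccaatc
Mgst1, chr6:138140461-138140489, plus strand, antioxidant response element core read from the opposite strand: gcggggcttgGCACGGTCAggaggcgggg
Gstm5, chr3:107895668-107895694, plus strand, AP-1: ctgtgcaacaTGACTCAcgcttcccgg
Gstp1, chr19:4037970-4037996, minus strand, AP-1: tccaacgtgtTGAGTCAgcatccgggg
Gstp2, chr19:4042294-4042320, minus strand, AP-1: tccaacgtgtTGAGTCAgcatccgggg
Mgst2, chr3:51661117-51661143, plus strand, AP-1: ccaatcctgtTGACTCAactctgttgc

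The AP-1 windows of Gstp1 and Gstp2, neighbours on chromosome 19, were identical over all letters shown. The motif began 74 bases before the RefSeq start in Gstp1, 89 in Gstp2 and 52 in Mgst2. RefSeq starts differ from the gene positions deposited with the FPKM values. By those positions the windows of Gstm7, Mgst1, Gstp2 and Mgst2 lie inside the gene.

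Levels of different genes were compared per length, in the FPKM that the authors deposited. Over all 9 libraries, Gpx3, the secreted plasma peroxidase, had the highest mean at 235 ± 127 FPKM (SD, n = 9). Mgst1, a membrane-bound transferase with peroxidase activity, followed at 127 ± 27.3 FPKM. Gpx8, a peroxidase of the endoplasmic reticulum, Gstm1, a mu class transferase, and Gpx4, which reduces lipid hydroperoxides in membranes, had means of 75.6, 75.2 and 69.8 FPKM, and these 3 did not differ beyond their SDs of 20.2, 25.1 and 18.3 FPKM. The spread of Gpx3 also reached the mean of Mgst1. Within single libraries, Gpx3 was above Mgst1 except in MR5 (89.1 against 124 FPKM), MXL12 (106 against 145) and MXL3_4 (137 against 169). Gstp1, the pi class enzyme typical of epithelia, had a mean of 36.8 FPKM, next to Gstm5 at 35.7 and Gsto1 at 34.3 FPKM.

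Each class had a leading member by mean FPKM. These were Gsta4 for alpha (10.2 ± 12.5 FPKM), Gstk1 for kappa (11.4 ± 1.91), Gstm1 for mu, Gsto1 for omega, Gstp1 for pi, Gstt1 for theta (8.46 ± 5.75), Gstz1 for zeta (19.0 ± 6.35), Mgst1 for the microsomal enzymes and Gpx3 for the peroxidases. Gclc, the catalytic subunit of the rate-limiting ligase, had 20.6 ± 7.48 FPKM, Gsr 8.05 ± 2.83 and Gss 1.83 ± 0.523. At the low end, Gsto2 had 0.243 FPKM. Gstm3 had 0 to 20 counts in MR and 0 in each MXL library, where 3 counts correspond to 0.038 to 0.0415 CPM. It failed the filter, and no fold is given. Gstt4, Gpx2-ps1 and Gpx4-ps1 had at most 9, 8 and 6 counts in any library.

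**Figure D1:**
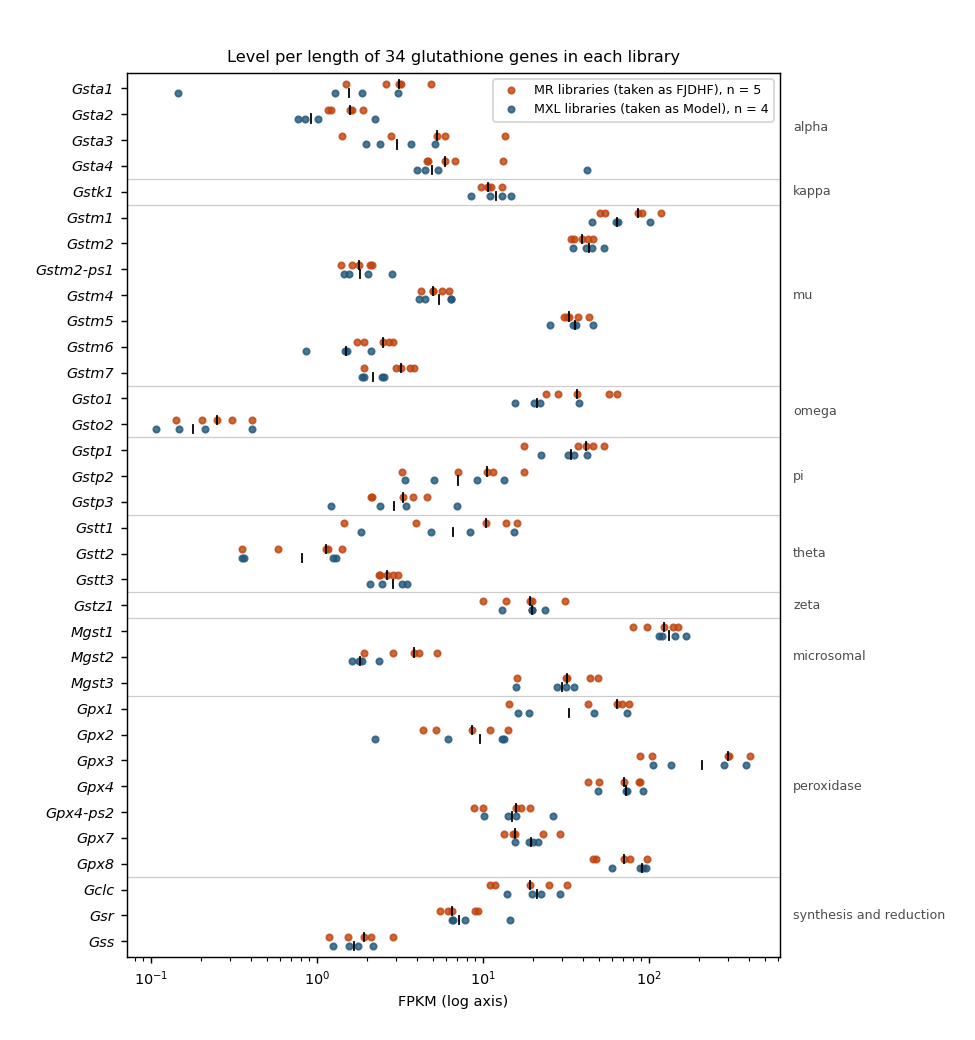
FPKM (log axis) of the 34 tested members, 1 point per library, in rows by class, with orange for MR (n = 5), blue for MXL (n = 4) and a black tick at each group's median. Gpx3 and Mgst1 lie at the high end and Gsto2 at the low end, and in every row the ranges of the groups overlap.

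No member passed an adjusted p under 0.05 with a fold change of at least 2 in the comparison of FJDHF with Model, and none of the 20817 genes tested did (0.0%). edgeR's smallest adjusted p over all genes was 1. DESeq2's Wald test called 2 genes, 0 of them members. At an unadjusted p under 0.05, 2 of the 34 members passed, namely Mgst2 and Gsto1, beside 326 of all genes tested (1.57%). Both were higher in MR, against 0.773% of all genes, and 0 members were lower, against 0.793%. In 0 members did the groups separate fully, where 0.514% of all genes did, 0.231% with MR higher and 0.283% with MR lower. An exact permutation p under 0.05 was reached by 2 members, Mgst2 and Gstm6, and by 1.93% of all genes. These counts of members are given as a description beside those shares.

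The fitted log2 fold change, MR minus MXL, was above 0 in 18 members and below 0 in 16, with a median of 0.03, beside -0.03 over all genes tested. Without pseudogenes the median was 0.11 over 32 members. Fitted values ranged from -1.03 to 0.92, and 33 of 34 members lay within a 2-fold change. By class the median was 0.55 for alpha (4 members), 0.51 for omega (2), 0.31 for microsomal (3), 0.22 for pi (3), 0.16 for theta (3), -0.04 for mu (7), -0.03 for the peroxidases (7) and -0.14 for Gclc, Gss and Gsr. The single kappa and zeta members had -0.12 and -0.03.

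**Figure D2:**
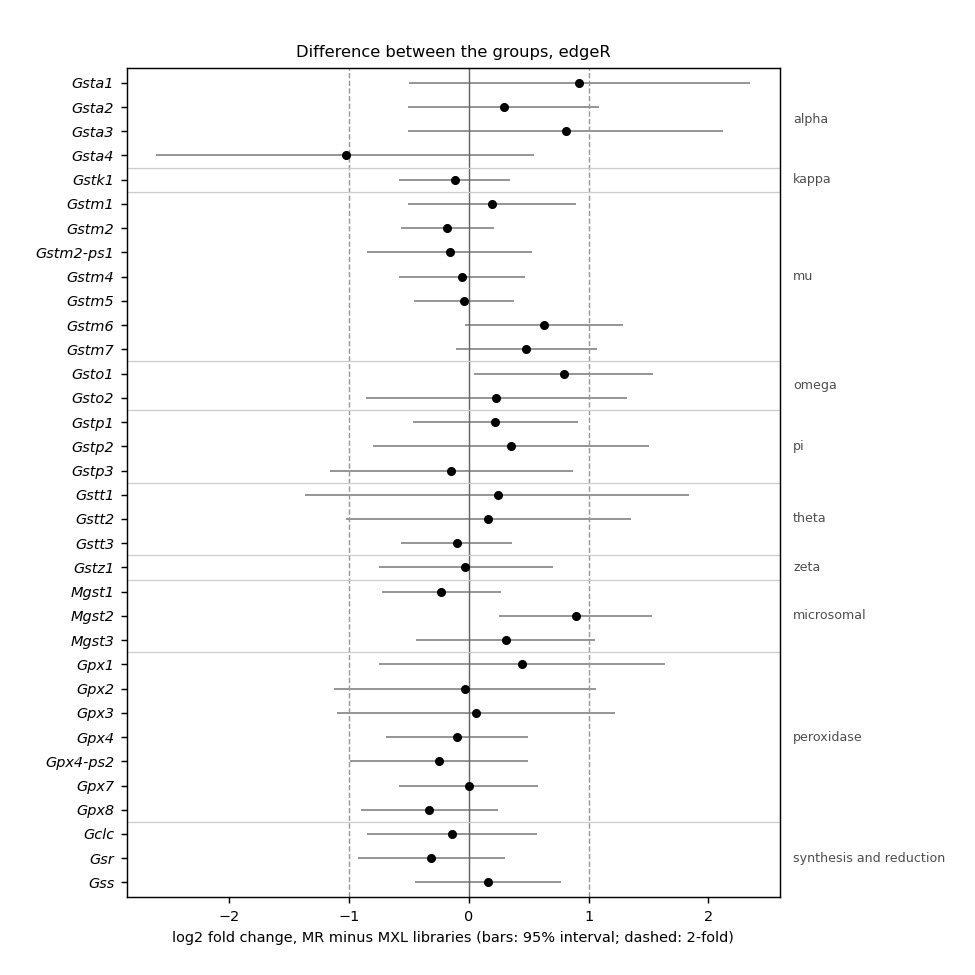
Fitted log2 fold change of each tested member (x axis, MR minus MXL) with its 95% interval from edgeR's quasi-likelihood fit, in rows by class. The intervals of Mgst2 (0.25 to 1.53) and Gsto1 (0.04 to 1.54) lie above 0, and the other intervals cross it.

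Mgst2 encodes a microsomal transferase that can also make leukotriene C4. Its level was 16.3, 7.27, 11.7, 14.5 and 20.1 CPM in MR1, MR3, MR3_4, MR4_5 and MR5, and 9.01, 7.29, 7.15 and 6.71 CPM in MXL1, MXL12, MXL3_4 and MXL_3. Every MR library except MR3 exceeded all MXL libraries, and MR3 lay just under MXL12. The means were 14.0 ± 4.83 CPM (SD, n = 5) and 7.54 ± 1.01 CPM (n = 4). The log2 fold change was 0.89 with an SE of 0.29, an unadjusted p of 0.0109 and an adjusted p of 1 in edgeR, and the exact permutation p was 0.0397. Leaving out MR3 separated the groups fully and gave 1.04, and 1.24% of all genes separated without it. Leaving out any 1 library kept the unadjusted p between 0.00181 and 0.0294 with edgeR.

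Gsto1 encodes an omega class transferase, which reduces rather than conjugates many of its substrates. MR libraries had 80.1, 49.8, 63.6, 119 and 134 CPM, in the order above, and MXL libraries had 46.0, 81.0, 44.3 and 34.8 CPM. MXL12 lay within the MR range, and the other MXL libraries lay under it. Gsto1 had a log2 fold change of 0.79 (SE 0.34, unadjusted p = 0.0406, adjusted p = 1, edgeR), and the exact permutation p was 0.0873. The unadjusted p was above 0.05 without MR1 (0.0572), MR4_5 (0.0915), MR5 (0.101), MXL1 (0.0858), MXL3_4 (0.0929) or MXL_3 (0.105), and it fell to 0.00839 without MXL12, when the groups separated, as they did for 1.44% of all genes. Gsto2, its neighbour on chromosome 19, had a log2 fold change of 0.23 (SE 0.49).

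The differentiated keratinocyte markers also stood higher in MR. With their level as a covariate in edgeR, Mgst2 had a log2 fold change of 0.50 (unadjusted p = 0.313) and Gsto1 of 0.64 (unadjusted p = 0.335). The mean log2(CPM + 0.5) of these markers was 8.66 to 9.30 in MR and 7.39 to 8.69 in MXL, so it nearly followed the groups. The fit could therefore hardly tell the marker level from the group. The part of these markers in the differences of Mgst2 and Gsto1 was not tested.

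**Figure D3:**
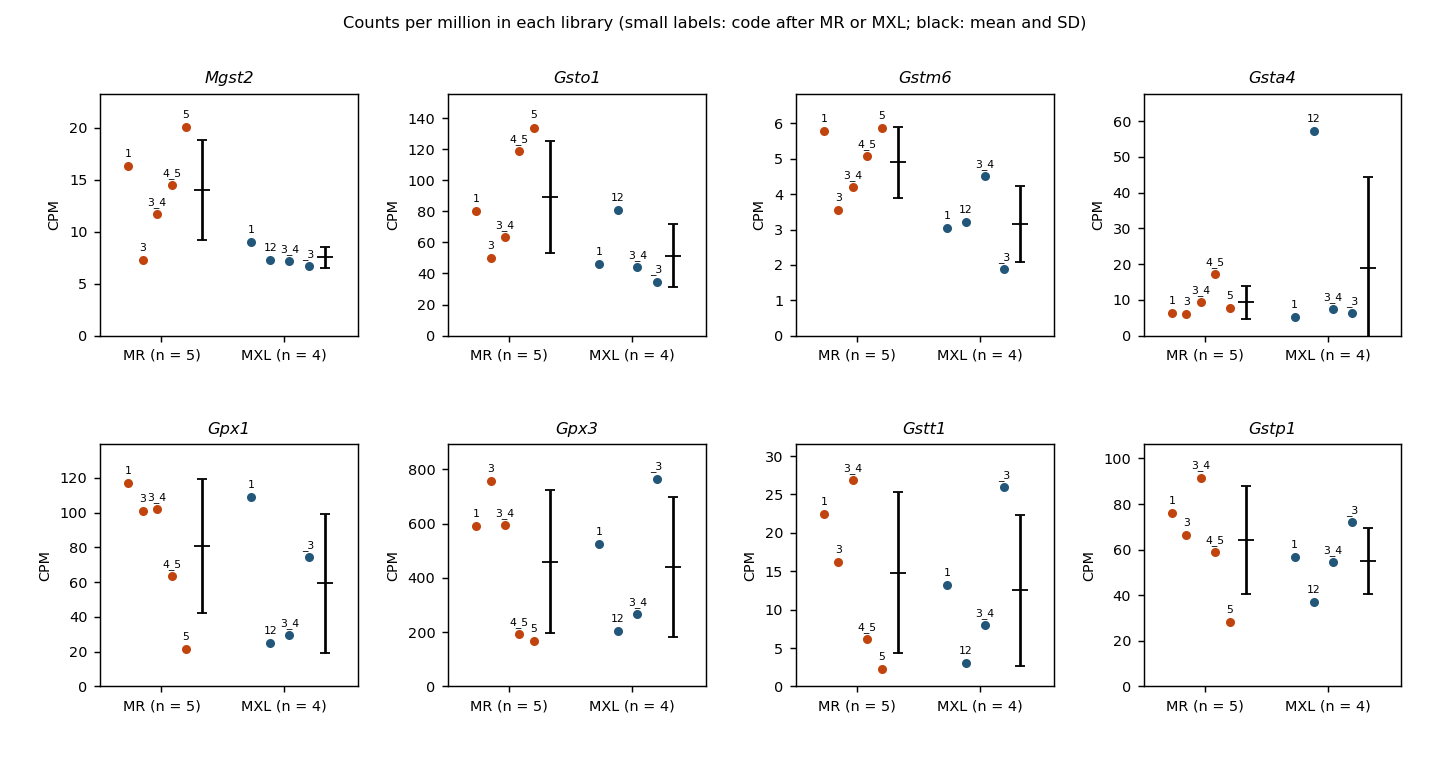
CPM in each library (points, labelled with the code after MR or MXL) for 8 members, with the mean and SD in black and axes from 0. The lower SD bar of Gsta4 in MXL is cut at 0, where MXL12 alone stands at 57.3 CPM. Mgst2 lies higher in 4 of 5 MR libraries than in any MXL library.

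The alpha class held the largest fitted values in both directions. Gsta1 had 3.27, 1.47, 2.76, 4.75 and 3.07 CPM in MR and 1.83, 3.12, 1.33 and 0.166 CPM in MXL, where MXL_3 was far under the rest. Its log2 fold change was 0.92 (SE 0.64, unadjusted p = 0.179, edgeR), with a 95% interval of -0.50 to 2.35, and it was 0.55 without MXL_3. Over 17 alternatives it ran from -0.54, with the differentiated keratinocyte markers as a covariate, to 1.59, with unadjusted p from 0.0066 to 0.653 over the fits with edgeR, DESeq2 and limma. Of its transcript windows of 50 bases, 90.5% also occur in other genes, Gsta2 among them, so its count is uncertain.

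Gsta3 had 24.4, 12.4, 65.4, 6.30 and 26.4 CPM in MR and 10.7, 9.20, 17.2 and 24.7 CPM in MXL. MR3_4 was the highest and MR4_5 the lowest of all, so the MXL values lay inside the MR range. The log2 fold change of 0.81 (SE 0.59, unadjusted p = 0.204, edgeR) was 0.17 without MR3_4. Gsta2 had 0.29 (SE 0.36), and 49.8% of its windows are shared with Gsta1 and related genes.

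Gsta4 encodes the alpha class enzyme that conjugates 4-hydroxynonenal, a product of lipid peroxidation. MR libraries had 6.20, 6.00, 9.38, 17.2 and 7.76 CPM, and MXL libraries had 5.23, 57.3, 7.33 and 6.27 CPM. MXL12 stood apart from the other 8 libraries, and the medians were 7.76 CPM in MR and 6.80 CPM in MXL. The log2 fold change of -1.03 (SE 0.71, unadjusted p = 0.175, edgeR) turned to 0.57 without MXL12 (unadjusted p = 0.165). MXL12 also held the highest summed level of the 10 neutrophil markers, 927 CPM beside 79.2 to 149 CPM in the other MXL libraries and 96.1 to 199 CPM in MR, with no marker at 0 counts over all libraries. Their part in the Gsta4 value was not tested.

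Gstm1 led the mu class, whose genes lie together on chromosome 3. It had 143, 129, 190, 76.2 and 82.5 CPM in MR and 98.4, 70.8, 100 and 166 CPM in MXL. The groups overlapped, and the log2 fold change was 0.19 (SE 0.32, unadjusted p = 0.561, edgeR). Gstm6 and Gstm7 were singled out after their values were seen. Gstm6 had 5.80, 3.55, 4.20, 5.09 and 5.88 CPM in MR and 3.04, 3.22, 4.52 and 1.88 CPM in MXL. Only MXL3_4 reached into the MR range, and the groups separated without it, as they did for 1.11% of all genes. Its log2 fold change was 0.63 (SE 0.30, unadjusted p = 0.0591, edgeR), and its exact permutation p was 0.0397, or 0.0635 on ranks.

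Gstm7 had a log2 fold change of 0.48 (SE 0.27, unadjusted p = 0.1, edgeR) and levels of 3.12 to 6.31 CPM in MR beside 3.16 to 4.39 CPM in MXL. The remaining mu members, Gstm2, Gstm4, Gstm5 and the pseudogene Gstm2-ps1, had values between -0.18 and -0.04. Gstm2, Gstm4 and Gstm5 were among the steadiest members over all libraries, with coefficients of variation of FPKM of 15.4%, 17.5% and 17.7%. Transcript sharing touched 18.9% of the windows of Gstm1 and 46.9% of those of Gstm2-ps1.

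Gstp1 had 76.0, 66.5, 91.6, 58.8 and 28.2 CPM in MR and 56.8, 37.0, 54.4 and 72.2 CPM in MXL. MR5 was the lowest and MR3_4 the highest library, and the log2 fold change was 0.22 (SE 0.31, unadjusted p = 0.496, edgeR). Gstp2 had 0.35 (SE 0.52) and Gstp3 had -0.15 (SE 0.46). Because 33.7% of the windows of Gstp1 and 54.3% of those of Gstp2 are shared, mainly with each other, the division of reads between them is uncertain.

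Gstt1, which acts on small halogenated molecules, had 22.4, 16.2, 26.9, 6.15 and 2.29 CPM in MR and 13.2, 3.00, 7.96 and 25.9 CPM in MXL. Each group held libraries at both ends, an 11.7-fold span over the 9 libraries. Between the groups the log2 fold change was 0.24 (SE 0.72, unadjusted p = 0.749, edgeR). Gstt2 had 0.16 (SE 0.53), with 1.54 to 6.31 CPM in MR and 1.59 to 5.99 CPM in MXL. Gstt3 was far steadier than either, at 9.58 to 12.7 CPM in MR and 8.55 to 13.8 CPM in MXL.

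Gstk1, a mitochondrial and peroxisomal transferase, had 16.9, 16.1, 20.9, 14.7 and 17.0 CPM in MR and 12.8, 20.3, 23.5 and 17.7 CPM in MXL. Its log2 fold change was -0.12 (SE 0.21), with a 95% interval of -0.58 to 0.34. Gstz1, an enzyme of tyrosine breakdown, had 107, 71.6, 176, 52.4 and 101 CPM in MR and 67.8, 107, 129 and 110 CPM in MXL. MR held both its highest and its lowest library, and its log2 fold change was -0.03 (SE 0.33).

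Mgst1, the microsomal member with the highest FPKM, had 301, 200, 330, 165 and 257 CPM in MR and 238, 308, 365 and 265 CPM in MXL. The 2 lowest libraries were MR and the highest was MXL3_4, within overlapping ranges. For Mgst1 the log2 fold change was -0.23 (SE 0.23, unadjusted p = 0.335, edgeR), with a 95% interval of -0.73 to 0.27. Mgst3 had 0.31 (SE 0.34). The difference between Mgst2 and these relatives was not tested.

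Among the peroxidases, Gpx3 had 590, 755, 594, 193 and 166 CPM in MR and 526, 203, 267 and 766 CPM in MXL. Each group held libraries near the top and near the bottom, and the means were 460 ± 264 CPM (SD, n = 5) and 441 ± 258 CPM (n = 4). Its log2 fold change was 0.06 (SE 0.52, unadjusted p = 0.91, edgeR), and its sign changed without MR1, MR3, MR3_4, MXL12 or MXL3_4. Gpx1, the cytosolic selenoenzyme, showed a like spread, with 117, 101, 102, 63.5 and 21.3 CPM in MR and 109, 24.8, 29.4 and 74.7 CPM in MXL. Its log2 fold change was 0.44 (SE 0.54, unadjusted p = 0.43, edgeR), and it was given here after its values were seen.

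Gpx8 had 86.7, 49.6, 81.9, 51.5 and 106 CPM in MR and 64.5, 102, 100 and 111 CPM in MXL. All but MXL1 of the MXL libraries were at or above 100 CPM, as was MR5 alone among the MR libraries. Gpx8 had a log2 fold change of -0.33 (SE 0.26, unadjusted p = 0.227, edgeR). Gpx2, the peroxidase of epithelial linings, had -0.03 (SE 0.49), Gpx4 had -0.10 (SE 0.27) and Gpx7 had 0.00 (SE 0.26). The pseudogene Gpx4-ps2 had -0.25 (SE 0.33), and 83.9% of its windows also occur in other genes, Gpx4 among them. Of the windows of Gpx4, 34.7% are shared, with Gpx4-ps2 among the partners, so the division of reads between these genes is uncertain.

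Gclc had 47.1, 96.4, 45.9, 124 and 74.9 CPM in MR and 76.5, 89.0, 118 and 58.5 CPM in MXL. The lowest and the highest library were both MR, and the log2 fold change was -0.14 (SE 0.32, unadjusted p = 0.674, edgeR). Gss had 9.74, 11.7, 13.8, 17.2 and 7.28 CPM in MR and 13.3, 7.90, 11.3 and 10.2 CPM in MXL, with a log2 fold change of 0.16 (SE 0.28). Its exons overlap genes on the opposite strand, Acss2 among them. Gsr had 16.3, 26.3, 19.7, 25.2 and 17.6 CPM in MR and 22.2, 43.0, 19.3 and 20.1 CPM in MXL. MXL12 was its highest library, as for Gsta4, and the log2 fold change of -0.32 (SE 0.28, unadjusted p = 0.278, edgeR) became 0.03 without MXL12.

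Variation between libraries, taken over both groups, was wide for several members. The coefficient of variation of FPKM over the 9 libraries was 123% for Gsta4, 79.3% for Gsta3, 67.9% for Gstt1 and 57.3% for Gsta1, and 53.9% for both Gpx1 and Gpx3. Some members varied together across both groups. MR4_5, MR5, MXL12 and MXL3_4 were the 4 lowest libraries for 7 of the 34 members (20.6%), and the same held for 1757 of the 20817 genes tested (8.44%). These members were Gpx1, Gpx3, Gpx4-ps2, Gstp2, Gstt1, Gstt2 and Mgst3. The same libraries were the 4 highest for 0 members and for 9.38% of all genes. They were noticed in the members' values and belong to both groups, so no test is given.

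The members together took 0.14% of all counts in MR4_5, 0.144% in MR5, 0.149% in MXL12 and 0.169% in MXL3_4. The other 5 libraries had 0.187% to 0.224%. Gpx3 weighed heavily in these shares. It had 13019 to 20670 counts in those 4 libraries and 41597 to 60402 in the other 5. The summed counts of the members were 107623 to 134561 and 144471 to 168350, so the shares depend strongly on this 1 gene. The summed level of the 14 skeletal muscle markers was 2420, 3750, 753 and 3070 CPM in MR4_5, MR5, MXL12 and MXL3_4. It was 4230 to 21500 CPM in the others. The summed level of the 7 erythroid markers was 71.6 to 139 CPM in the 4 and 243 to 959 CPM in the others. Both lists were picked from a larger set of marker lists, and not every list divided the libraries this way. Adipocyte markers had 682 to 1680 CPM in the 4 and 1060 to 2770 CPM in the others. Endothelial markers had 459 to 645 CPM and 542 to 1020 CPM. No skeletal muscle or erythroid marker was at 0 counts over all libraries. The part of these markers in the members' spread was not tested. With the muscle marker level as a covariate in edgeR, 4 of the 34 members had an unadjusted p under 0.05, beside 2.16% of all genes. Among them Mgst2, Gsto1 and Gsta1 had log2 fold changes of 0.90, 0.91 and 1.55 (unadjusted p = 0.00888, 0.00117 and 0.0066, edgeR), and the smallest adjusted p of these 3 was 0.962.

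**Figure D4:**
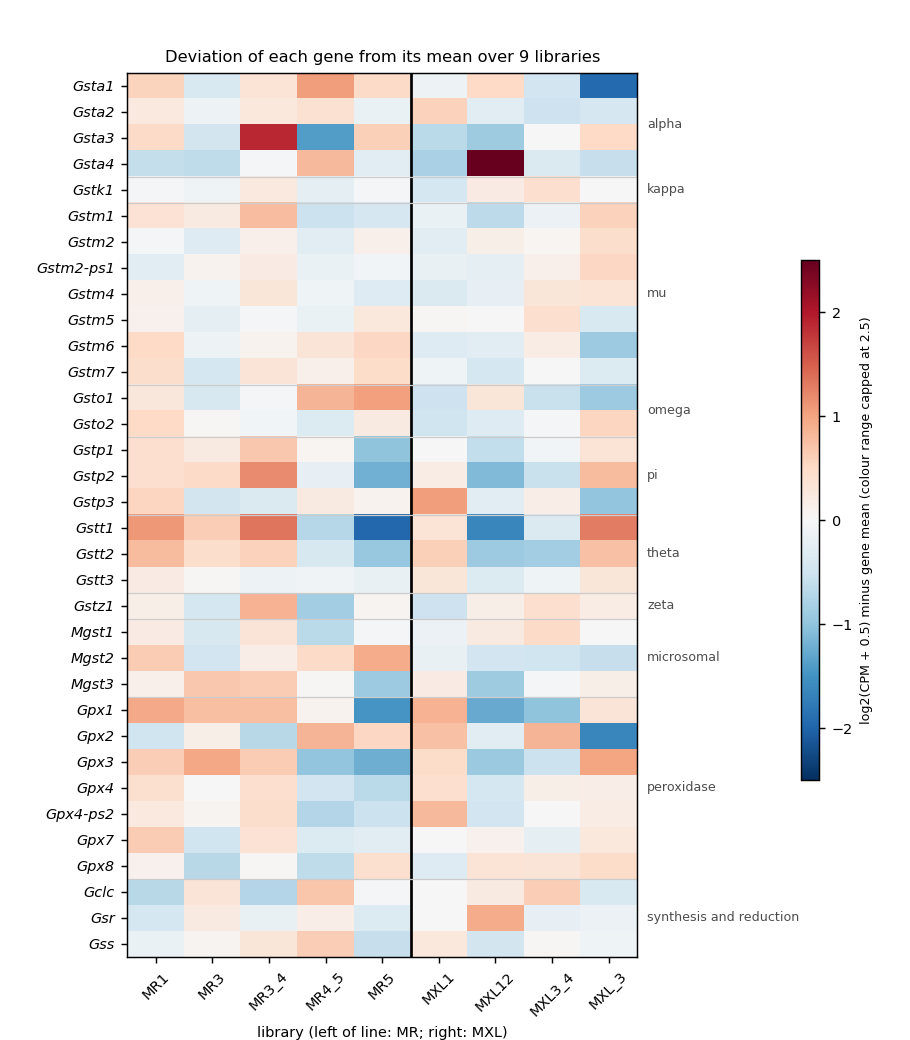
Deviation of each tested member's log2(CPM + 0.5) from its mean over the 9 libraries, with members in rows, libraries in columns and a line between MR and MXL. Gpx1, Gpx3 and Gstt1 are low in MR5 and MXL12, and Gsta4 in MXL12 lies at the upper end of the colour range.

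The genes around these enzymes were taken from pathway lists. In the list for glutathione synthesis and cysteine supply, 4 of 10 genes had a higher fitted value in MR and 6 a lower one, with a median log2 fold change of -0.04. Gclm, the regulatory partner of Gclc, had -0.21 (SE 0.27), and the cystine importer gene Slc7a11 had -0.38 (SE 0.56). The smallest p was that of the amino acid transporter gene Slc1a4, at 0.26 (SE 0.23, unadjusted p = 0.286, edgeR).

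In the list for glutathione breakdown and mercapturate formation, 7 of 16 genes were fitted higher and 9 lower, with a median of -0.01. Ggct, which releases 5-oxoproline from gamma-glutamyl dipeptides, was the only gene of any list with an unadjusted p under 0.05. Of all genes tested, 1.57% passed that threshold, and the lists together did not exceed this share. Ggct had 117, 97.3, 97.2, 115 and 114 CPM in MR and 114, 63.2, 53.4 and 43.9 CPM in MXL. MXL1 lay within the MR range, and the other MXL libraries lay under it. Ggct had a log2 fold change of 0.65 (SE 0.26, unadjusted p = 0.0287, adjusted p = 1, edgeR), and the exact permutation p was 0.0397.

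Export of glutathione conjugates was covered by 8 tested genes, 4 higher and 4 lower, with a median of 0.04, and Abcc1, an exporter of such conjugates, had 0.12 (SE 0.15). For the glutaredoxins, thioredoxins and peroxiredoxins, 8 of 19 genes were fitted higher and the median was -0.04, with the smallest p for Glrx, a glutaredoxin, at 0.37 (SE 0.27, unadjusted p = 0.195, edgeR). A further list held other glutathione-dependent enzymes and some genes that are not such enzymes. In it 6 of 16 genes were fitted higher, with a median of -0.04. Etfdh, which is not a glutathione-dependent enzyme, had the smallest p, at -0.19 (SE 0.13, unadjusted p = 0.192, edgeR).

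For the Nrf2 pathway and its textbook targets, 15 of 28 genes were fitted higher and 13 lower, with a median of 0.02. Nqo1, a quinone reductase and standard Nrf2 target, had 12 ± 3.35 CPM in MR (SD, n = 5) and 12.1 ± 2.16 CPM in MXL (n = 4). The list's smallest p was that of Txnrd1, a thioredoxin reductase, at -0.16 (SE 0.20, unadjusted p = 0.44, edgeR). The genes of NADPH supply had a median of 0.06, with Idh1, which makes NADPH in the cytosol, at -0.15 (SE 0.19). The 4 genes for superoxide and hydrogen peroxide removal had a median of -0.20, with Sod2, the mitochondrial dismutase, at -0.25 (SE 0.21). The 8 genes for selenoprotein synthesis had a median of 0.02, with Sephs2, which activates selenium, at 0.19 (SE 0.18). No gene of any list separated the groups fully.

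**Figure D5:**
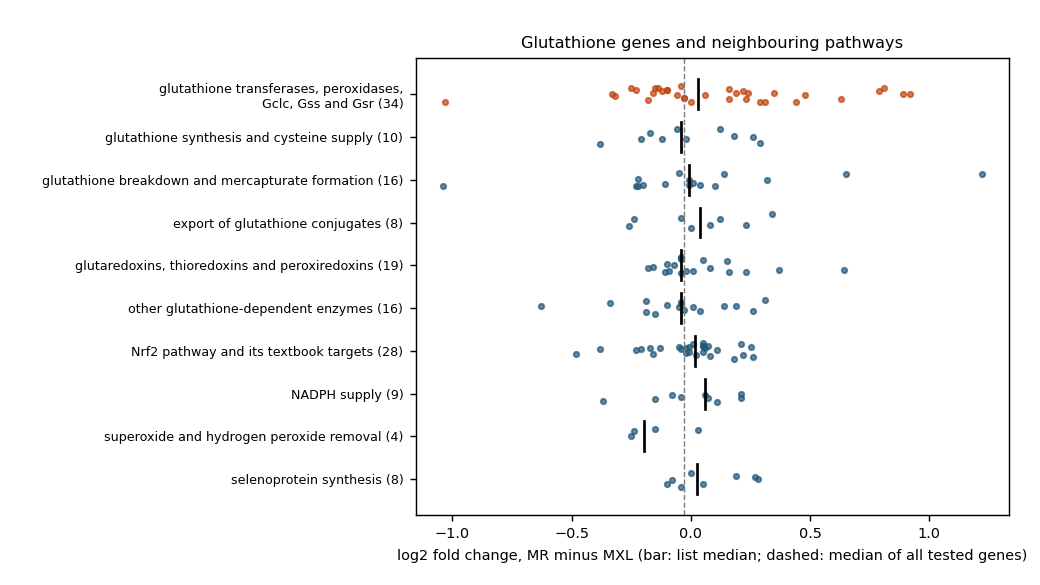
Fitted log2 fold change (MR minus MXL) of each tested gene, 1 point per gene, in rows for the members and 9 pathway lists, with a tick at each median. Medians of the lists lie between -0.20 and 0.06, beside -0.03 for all genes tested.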

How the data were processed

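Back skin RNA of 9 libraries was analysed, 5 taken as FJDHF and 4 as Model. The authors deposited whole-number read counts for 55401 genes without normalization, and FPKM values, which the authors had normalized to transcript length and sequencing depth, for 34637 genes. HISAT, StringTie, DESeq2 and the build mm10 are named in the submitters' processing notes. The counting program, annotation release and strand setting are not given in the sources used here. The FPKM table's 9 further per-library columns, checked to equal the counts, were not used.

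Counts were fitted with the quasi-likelihood test of edgeR 4.0.16 under R 4.3.3, after filterByExpr and TMM scaling, without covariates, and p-values were adjusted by Benjamini-Hochberg over all genes tested. Intervals are 95% t intervals. Exact permutation tests were two-sided on log2(CPM + 0.5) over 126 assignments, and 0.00794 is the smallest p they allow. A gene at 3 counts (0.0375 to 0.0415 CPM) was taken as at the floor, which covers counting error only. The steps were tested on simulated data. Marker scores are means of log2(CPM + 0.5).

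The members and lists were chosen with earlier results of these data known. Members were given value by value if they had an unadjusted p under 0.05 or groups that did not overlap, were among the 3 largest or 3 smallest fold changes, led their class in FPKM, or were Gclc, Gss or Gsr. For each list the gene with the smallest p was named, except in the export list, where it is not reported here. Others were chosen after their values were seen.

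Alternatives were DESeq2 1.42.0 size factors and its Wald test, limma 3.58.1 on log2(FPKM + 1), no filter, at least 10 counts in every library, each library left out, a replicate block and marker levels as covariates. For exact tests, another pseudocount, FPKM and ranks were tried. Promoters came from RefSeq (GRCm38.p6) and transcripts from GENCODE M21, read with Python 3.11.15 and scipy 1.17.1, and figures were drawn with matplotlib 3.10.9.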

Additional observations from a re-analysis of the deposited data

Results flagged for a closer look

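Gsta4 in the Model libraries stood out for 1 library. MXL12 had 4328 counts, and the other Model libraries had 413 to 568. On the log2(CPM + 0.5) scale, the gap between MXL12 and the nearest of them was 0.865 of the group's whole range, above Dixon's 95% critical value for 4 samples. This was 1 of 70 comparisons over members and groups, where chance alone flags about 1 in 20, or 3.5.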

How the results depend on the processing

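Genes past the adjusted threshold numbered 0 with edgeR, 2 with DESeq2's Wald test and 1 with the skeletal muscle marker level as a covariate. Members at an unadjusted p under 0.05 numbered 2, with 1 to 4 when a library was left out (1 without MR1, MR4_5, MR5 or MXL_3, 4 without MR3), 4 with the muscle covariate and 1, Gstp3, with the differentiated keratinocyte marker level as a covariate. Members past that p numbered 3 with DESeq2's Wald test, limma, no filter (38 members tested) or at least 10 counts in every library. Of all genes, 2.21%, 1.86%, 2.61% and 1.61% passed there, in that order. The share of all genes was 1.06% to 3.45% with a library left out (1.51% without MR3). It was 2.16% with the muscle and 2.54% with the keratinocyte covariate. Mgst2, Gsto1, Gsta3, Gstp1 and Mgst1 kept their direction under all 17 alternatives. Non-overlapping members numbered 0 to 2 with a library left out (2 without MR3, and 1 each without MXL1, MXL12 or MXL3_4), beside 1.24%, 2.62%, 1.44% and 1.11% of all genes. The median over members stayed between -0.02 and 0.15 with a library left out. The export list had a median of -0.04 to 0.23 with a library left out, the highest without MXL1, and -0.28 with the keratinocyte covariate. That covariate gave 0.11 for the list that holds the other glutathione-dependent enzymes.

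Single values that changed sign were small except for Gsta1 and Gsta4. With a library left out, fitted log2 fold changes ran from -0.22 to 0.47 for Gpx3 (below 0 without MR1, MR3, MR3_4, MXL12 or MXL3_4), -0.32 to 0.14 for Gstz1 (0 or above without MR3, MR4_5, MXL3_4 or MXL_3), -0.37 to 0.06 for Gclc (0 or above without MR3_4 or MXL3_4), -0.09 to 0.87 for Gstt1 (below 0 without MR3_4 or MXL12), -0.01 to 0.47 for Gstm1 (below 0 without MR3_4), -0.01 to 0.30 for Gss (below 0 without MR4_5), -0.44 to 0.03 for Gsr and -1.37 to 0.57 for Gsta4 (above 0 without MXL12), and -0.26 to 0.02 for Gstk1 (above 0 without MXL3_4). With the keratinocyte covariate they were Gpx8 (0.03), Gss (-0.15), Gsta1 (-0.54), Gstk1 (0.08) and Gstz1 (0.22), and with the muscle covariate Gpx3 (-0.12). On ranks the exact permutation p was 0.905 for Gpx3 and for Gsta4, each in the other direction, and 0.0635 for Mgst2 and Gstm6. The causes were not tested.

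The column codes share 3 numbers between the groups, and deviations of same-numbered libraries correlated at 0.225, 0.118 and -0.219, so the numbers were not taken as pairs. A replicate block called 0 genes and gave a member median of 0.17. It left 2 members, Gsta1 and Gsto1, at an unadjusted p under 0.05, beside 1.35% of all genes. Mgst2, with a log2 fold change of 0.56, no longer passed that threshold. The block compared the groups only within the 3 shared numbers, so MR4_5, MR5 and MXL12 did not bear on its fold changes. Under the block the log2 fold change was 0.18 for Gsta4, 0.03 for Gstk1 and 0.16 for Gstz1, all of changed sign. Not every library correlated best with its own number.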
